A study of Mus musculus with 36 samples.

Results

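The comparison described here is between 3 libraries of mouse astrocytes treated with TNF, a Smac mimetic and the caspase inhibitor zVAD (T/S/Z) and 3 libraries of astrocytes given the vehicle DMSO (spelled DSMO in the sample labels), which are 6 of the 36 libraries of the series and 6 of its 12 astrocyte libraries. The other 6 astrocyte libraries, 3 given Nec-1s alone and 3 given the 3 agents and Nec-1s together (T/S/Z/N), were used to ask whether the response differed when the kinase activity of RIPK1 was inhibited, and the remaining libraries of the series are from microglia. All astrocytes came from C57BL/6 mice of 2 to 4 days of age with no genetic change named in the labels. Brains were pooled and mixed glial cultures were grown for 12 days, CD11b-positive microglia were removed, astrocytes were taken from the remaining fraction by positive selection with a kit for APC-labelled cells, and the plated cells were treated for 4 h. The values are log2(FPKM + 1), where FPKM is the number of fragments per kilobase of exon, scaled to the mapped fragments of the library. A gene was tested when its value was at least 1 in at least 3 of the 12 astrocyte libraries, which kept 13842 of the 14551 genes in the table. A gene was called when the linear form of its change was over 1.5-fold and its adjusted p was under 0.05 in limma's moderated test with the replicate number as a block, and each adjusted p for T/S/Z against DMSO is from this fit over all 13842 genes. Because 1 was added to each FPKM, a change on this scale understates the change of a weakly expressed gene.

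TNF binding to its receptor TNFR1 assembles a complex in which RIPK1 serves as a scaffold for ubiquitin chains that activate NF-kB. The Smac mimetic removes the ubiquitin ligases cIAP1 and cIAP2, and zVAD blocks caspase-8, so that RIPK1 kinase activity can pass to RIPK3 and MLKL, which carry out necroptosis. Nec-1s is an inhibitor of RIPK1 kinase activity. Astrocytes are known to answer inflammatory stimuli with chemokines, acute-phase proteins and interferon-type genes, and at rest they buffer potassium and glutamate and couple to each other through gap junctions.

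Libraries of the same group correlated with r of at least 0.983 over the tested genes, and DMSO with T/S/Z libraries with r between 0.934 and 0.951. The steps of the lowest values gave an estimated 39.7 M to 42.3 M reads or fragments per library for these 6 libraries, although between 65.8% and 73.5% of those low values fell within 0.1 of a whole read, so read counts were not recovered. No value in the table was 0, and the lowest was 0.0136.

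Defining astrocyte genes were abundant. Mean FPKM in DMSO was 2005 for Gfap, 324 for Aqp4 and 260 for Gja1, beside 2.29, 0.566 and 0.404 in the DMSO-treated microglia of the series, a table normalized separately. The summed FPKM of the astrocyte list (the homeostatic genes below with Gfap and Vim) was 14952 to 16013 in DMSO and 13655 to 14384 in T/S/Z, and that of the 18 microglial markers in the table was 159 to 168 in DMSO, 0.876% of the sum of the same genes in the microglia. Of the 34 genes of the astrocyte list that both tables hold, 31 were lower in the microglia and 3 higher, and the median gene stood there at 0.557% of its astrocyte level. A single gene held 88.2% of the microglial sum of the list, and the astrocyte sum was 65.4% of the microglial sum with it and 509% without it. Fibroblast markers, at 769 to 783, and markers of pericytes and vascular smooth muscle, at 1216 to 1436, were also present in DMSO. In bulk libraries fewer cells of a type and less RNA per cell cannot be told apart.

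T/S/Z changed 2130 of the 13842 genes (15.4%), 885 of them higher (6.39%) and 1245 lower (8.99%). The rises were the larger changes. Among called genes 462 rose and 304 fell by at least 1 on the log2 scale, and 67 rose but 1 fell by at least 3. The median change was 1.03 for the genes that rose, -0.79 for those that fell and -0.11 for all tested genes, so a fall is read against that small shift. Of the rises, 883 of 885 had the same direction in all 3 pairs of replicates, as had 1242 of the 1245 falls. The share of rises among the called genes was 41.5% and was 52.1% after quantile normalization. The genes that rose held 2.97% to 3.29% of the summed FPKM in the DMSO libraries and 9.62% to 10.4% in the T/S/Z libraries. A gene that reached the level filter only through libraries given T/S/Z was tested because it was high there, so the rises in such genes are given beside the counts of the lists below. Of the tested genes 345 were of this kind, 132 of them among the rises, and of the other 13497 genes 753 rose (5.58%). The call rests on the variance shared over genes by limma, since with each gene's own variance alone 281 genes passed, and 52 of the 72 counts of rises or falls over the gene and marker lists then differed by more than 1.5 times.

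With pseudogenes and unnamed models left out, which leaves out Cxcl11 because the table annotates it as a polymorphic pseudogene, the 15 largest rises were in chemokines (Ccl2, Cxcl10, Ccl7, Cxcl1, Ccl5, Cxcl2), NF-kB targets and regulators (Tnfaip2, Nfkbia), interferon-inducible genes (Gbp5, Gbp2, Rsad2), the receptor Tlr2, the iron-binding protein Lcn2, the protease Mmp3 and the itaconate-forming enzyme Acod1. Those same 15 genes are shown library by library in the plot of the largest rises. The promoter windows of the most raised of these genes for which RefSeq windows were given are printed here to show the letters that lie before their start sites. Each runs 5′ to 3′ on the strand of its gene from 250 bases before the RefSeq start site to 50 after it (build GRCm38.p6), and capitals mark matches on either strand to GGGA followed after any 2 bases by TTCC (the core of many NF-kB sites), GAAA followed after any 2 bases by GAAA (interferon response) or TGANTCA (AP-1).
Cxcl10 (chr5:92348840-92349139, minus strand): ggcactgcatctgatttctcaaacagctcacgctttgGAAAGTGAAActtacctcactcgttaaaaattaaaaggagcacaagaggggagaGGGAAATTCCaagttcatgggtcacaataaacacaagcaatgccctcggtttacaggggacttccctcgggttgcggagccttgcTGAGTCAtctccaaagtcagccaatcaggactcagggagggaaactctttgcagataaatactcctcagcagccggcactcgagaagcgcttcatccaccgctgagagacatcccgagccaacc
Cxcl1 (chr5:90890995-90891294, plus strand): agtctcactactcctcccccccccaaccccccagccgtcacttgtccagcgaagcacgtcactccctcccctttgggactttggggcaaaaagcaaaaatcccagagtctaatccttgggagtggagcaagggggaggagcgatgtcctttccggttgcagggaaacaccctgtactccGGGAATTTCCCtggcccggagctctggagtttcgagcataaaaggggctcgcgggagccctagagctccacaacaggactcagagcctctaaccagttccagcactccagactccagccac
Gbp5 (chr3:142496684-142496983, plus strand): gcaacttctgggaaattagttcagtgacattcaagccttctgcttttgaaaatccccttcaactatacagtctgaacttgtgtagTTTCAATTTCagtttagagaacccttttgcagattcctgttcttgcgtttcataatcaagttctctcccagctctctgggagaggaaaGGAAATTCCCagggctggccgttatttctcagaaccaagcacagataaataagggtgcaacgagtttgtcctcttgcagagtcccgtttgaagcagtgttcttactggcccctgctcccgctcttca
Cxcl2 (chr5:90903649-90903948, plus strand): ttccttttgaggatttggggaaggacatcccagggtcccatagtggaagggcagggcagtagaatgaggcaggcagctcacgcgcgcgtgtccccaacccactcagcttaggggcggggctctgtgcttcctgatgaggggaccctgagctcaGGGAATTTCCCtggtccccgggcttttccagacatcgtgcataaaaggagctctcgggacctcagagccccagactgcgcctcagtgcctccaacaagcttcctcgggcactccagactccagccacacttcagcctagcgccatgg
Tnfaip2 (chr12:111442411-111442710, plus strand): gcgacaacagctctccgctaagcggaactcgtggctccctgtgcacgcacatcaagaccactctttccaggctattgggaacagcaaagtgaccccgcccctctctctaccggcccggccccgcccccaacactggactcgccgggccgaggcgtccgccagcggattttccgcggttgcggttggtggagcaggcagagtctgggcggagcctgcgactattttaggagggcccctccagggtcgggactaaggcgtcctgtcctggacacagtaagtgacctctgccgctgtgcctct
Tlr2 (chr3:83841559-83841858, minus strand): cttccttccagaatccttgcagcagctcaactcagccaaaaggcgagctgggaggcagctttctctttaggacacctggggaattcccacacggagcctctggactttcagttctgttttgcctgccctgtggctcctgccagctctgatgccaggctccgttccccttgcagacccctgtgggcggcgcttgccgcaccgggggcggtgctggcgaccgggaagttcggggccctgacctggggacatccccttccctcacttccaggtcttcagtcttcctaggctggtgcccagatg

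The Cxcl10 window held all 3 motifs, the NF-kB match lying 159 to 150 bases before the start site and the interferon response match 213 to 204 bases before it. In the windows of Cxcl1 and Cxcl2 the same 11 letters held a match on each strand, overlapping by all but 1 base, and the Gbp5 window held an NF-kB and an interferon response match. The Gbp5 window lies 2956 bases from the start of the deposited gene model, and the windows of Tnfaip2 and Tlr2 held no exact match to these 3 patterns. Only exact matches were marked and counted. The printed windows of Tlr2 and Cxcl10 also hold unmarked runs that come close to the NF-kB pattern. Of the 13842 tested genes 10495 were matched to a window. NF-kB letters were in 1.49% of all 10495 windows, in 3.68% of the 652 windows of genes that rose, in 0.901% of the 888 of genes that fell and in 7 of the 42 of genes that rose by at least 3 on the log2 scale. Interferon response letters were in 3.05% of all windows, in 9.66% of those of raised genes and in 9 of the 11 windows of the interferon-inducible GTPase list. AP-1 letters were in 4.85% of all, 10.3% of raised and 6.76% of lowered genes. A match is a description of the letters in the window and was not tested as a binding site.

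**Figure D1:**
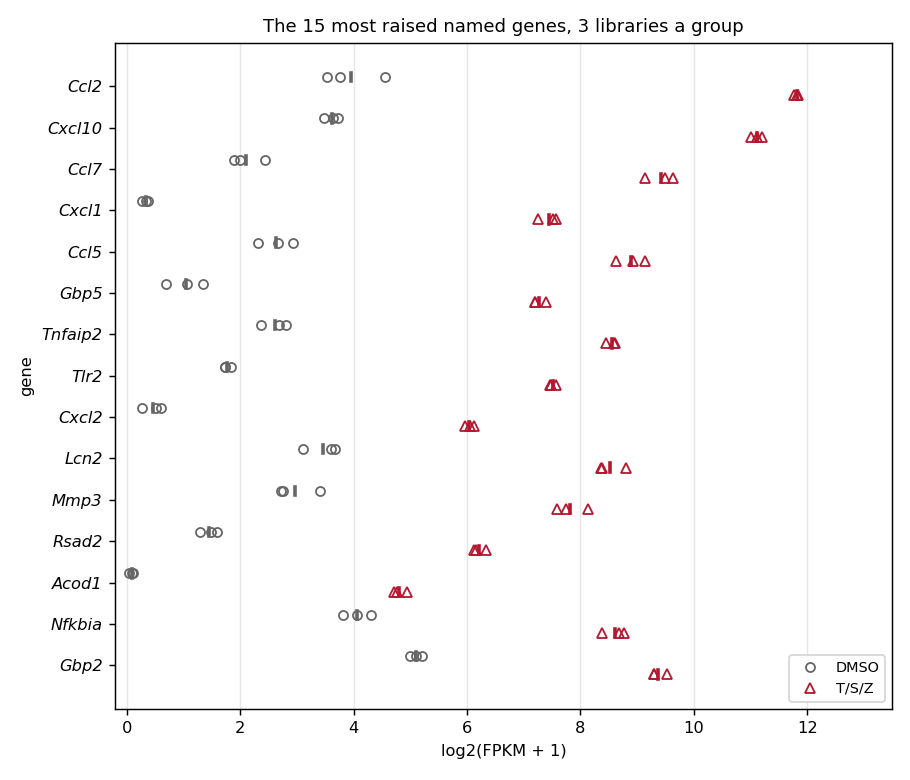
Level, as log2(FPKM + 1), of the 15 genes with the largest rises, with Cxcl11, pseudogenes and unnamed models left out, in each of the 3 DMSO (grey circles) and 3 T/S/Z libraries (red triangles), with bars at the group means. Every gene's T/S/Z libraries lie above all its DMSO libraries, Ccl2 reaching 11.77 to 11.84 in T/S/Z.

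Chemokines, the secreted proteins that draw leukocytes into tissue, held the largest single rises. Of 23 chemokine genes tested 16 rose and 1, Cxcl14, fell (-0.62, a call lost with median centring, with 5 added to each FPKM and with its own variance), and the median change was 3.03. With 5 added to each FPKM it was 1.68, below the 1.88 of the interferon-inducible GTPases. Of the 16 rises 9 were in genes that reached the filter only with T/S/Z, and of the other 14 genes 7 rose. The monocyte attractant Ccl2 had log2 levels of 3.76, 3.54 and 4.56 in the DMSO libraries and 11.82, 11.77 and 11.84 in the T/S/Z libraries, a rise of 7.86 ± 0.17 (SE, n = 3 per group, adjusted p = 3.13e-07). Its relative Ccl7 went from 1.99, 1.89 and 2.43 to 9.14, 9.63 and 9.50, a rise of 7.32 ± 0.13 (adjusted p = 1.73e-07). Ccl2 (chr11:82035571-82037453) and Ccl7 (chr11:82045712-82047525) lie side by side on the plus strand in build GRCm38. Both genes were expressed before treatment, and in neither did the groups overlap. The T cell attractant Cxcl10 stood at 3.48, 3.64 and 3.72 in DMSO and at 11.20, 11.11 and 11.01 in T/S/Z (7.49 ± 0.10, adjusted p = 5.34e-08). Neutrophil attractants rose from near the bottom of the scale. Cxcl1 was at 0.34, 0.28 and 0.38 in DMSO and 7.25, 7.51 and 7.56 in T/S/Z (7.11 ± 0.09, adjusted p = 5.34e-08), and Cxcl2 went from 0.52, 0.26 and 0.60 to 5.96, 6.05 and 6.12 (5.58 ± 0.10, adjusted p = 1.73e-07). Ccl5, which attracts T cells, rose by 6.26, the interferon-inducible Cxcl11 by 6.05, Ccl20, the ligand of CCR6, by 4.06 and Cxcl5, a further neutrophil attractant, by 3.15. Ccl2, Cxcl10 and Cxcl11 carry a mark in the deposited annotation that is read here as overlap with another gene, as do 56.2% of tested genes. Cxcl12, a homeostatic chemokine, did not pass (-0.13, adjusted p = 0.387).

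The monocyte-type chemokines Ccl3 and Ccl4 stayed far below their level in T/S/Z microglia even after treatment. Ccl3 had levels of 0.38, 0.08 and 0.49 in DMSO and 4.41, 4.39 and 4.18 in T/S/Z, and Ccl4 of 0.70, 0.10 and 0.62 and 3.89, 3.79 and 3.53, rises of 4.01 ± 0.13 and 3.27 ± 0.16. Their mean in T/S/Z astrocytes was 0.448% and 0.418% of the mean FPKM in T/S/Z microglia, a table normalized separately by the authors and adjusted between its replicates, and set beside this one without a test. The 16 microglial markers with over 50 FPKM in microglia stood at 0.349% to 5.07% of their microglial level in DMSO astrocytes and at 0.177% to 3.43% in T/S/Z astrocytes. Whether the remaining microglia made the Ccl3 and Ccl4 of these libraries was not tested. On the same scale Ccl2 in T/S/Z astrocytes was at 4846% of the microglial level, Cxcl10 at 1953% and Lcn2 at 4815%.

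Cytokines and colony-stimulating factors rose in 17 of 20 tested genes, with a median change of 2.07, and 11 of the 31 listed were not tested. Of these rises 9 were in genes that reached the filter only with T/S/Z, and of the other 11 genes 8 rose. With 5 added to each FPKM 12 of the 20 rose, and of the 7 genes that averaged at least 3 on the log2 scale 4 rose, with a median of 0.95. Csf2, which encodes GM-CSF, was at 0.08, 0.23 and 0.08 in DMSO and 4.34, 4.54 and 4.18 in T/S/Z (4.23 ± 0.10, adjusted p = 3.92e-07). Lif, a cytokine of the IL-6 family, had DMSO levels of 3.57, 3.54 and 3.36 and T/S/Z levels of 7.25, 7.12 and 7.04 (3.65 ± 0.07, adjusted p = 2.15e-07), and Il6 itself went from 0.47, 0.29 and 0.46 to 3.48, 3.92 and 4.12 (3.43 ± 0.15, adjusted p = 7.41e-06). Lif was the more abundant of the pair per exon length in each of the 6 libraries. The epithelial cytokine Tslp rose by 3.73, Il11 by 2.29 and Csf1, the growth factor of microglia, by 2.59. Il1b and Il1a, the interleukin-1 genes, rose by 3.91 and 3.11, Il1rn, the gene of their antagonist, by 2.33 and Tnf by 2.63. In T/S/Z astrocytes Il1b was at 5.50%, Il1a at 14.1%, Il1rn at 4.83% and Tnf at 0.897% of the T/S/Z microglial level. The percentages of the microglial markers are given above, and whether remaining microglia made these RNAs was not tested. Csf2, Lif, Il6, Tslp, Il11 and Csf1 were above their microglial levels. Il33, an alarmin, and Il18 did not pass (0.39 and 0.23).

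**Figure D2:**
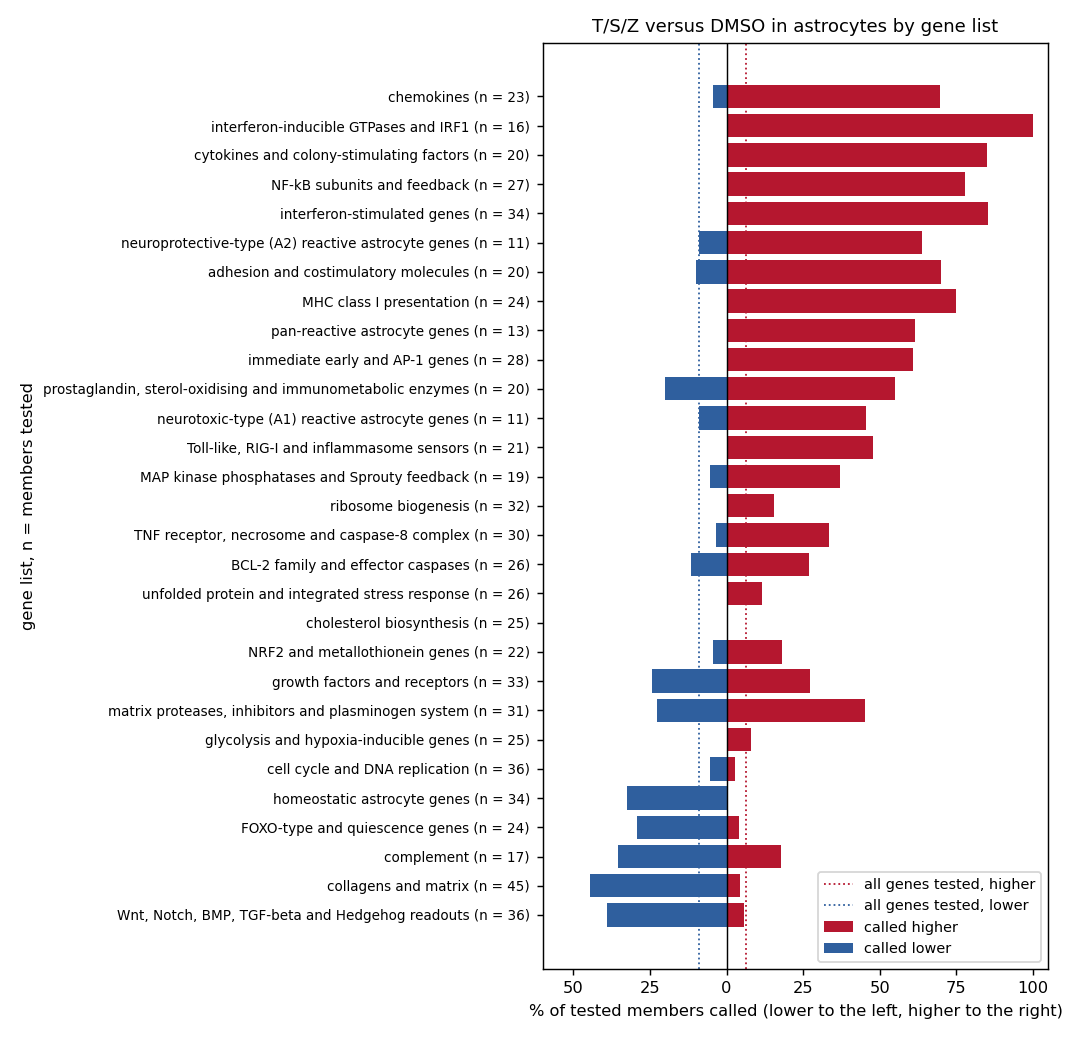
Percentage of tested members called higher (red, to the right) or lower (blue, to the left) with T/S/Z for 29 gene lists ordered by their median change, the number tested in brackets. Dotted lines mark the percentages over all tested genes, 6.39% higher and 8.99% lower, and the longest red bar is that of the interferon-inducible GTPases, with 16 of 16 higher.

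The NF-kB subunits and their feedback regulators rose in 21 of 27 tested genes (median 1.65), 3 of which reached the filter only with T/S/Z. The target gene Tnfaip2 led (5.93), followed by genes of inhibitors of the pathway. Nfkbia, which encodes IkB-alpha, had levels of 4.31, 3.82 and 4.06 in DMSO and 8.77, 8.68 and 8.38 in T/S/Z (4.55 ± 0.11, adjusted p = 3.92e-07), and Tnfaip3, the gene of the ubiquitin-editing enzyme A20, of 1.25, 1.47 and 1.52 and 5.41, 5.38 and 5.48 (4.01 ± 0.09, adjusted p = 3.5e-07). Nfkbie rose by 4.25. The subunit genes Nfkb2, Relb, Nfkb1 and Rela rose by 3.10, 3.02, 2.24 and 1.47. The genes of the IKK kinase complex that activates the pathway did not pass (Chuk 0.01, Ikbkb 0.32, Ikbkg -0.21).

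Of the 30 genes of the TNF receptor, the necrosome and the caspase-8 complex, 10 rose and 1 fell, with a median of 0.24. After Tnfaip3 the largest rise was in a gene whose product the Smac mimetic targets. Birc3, the gene of cIAP2, was at 1.86, 1.68 and 2.12 in DMSO and 5.18, 5.19 and 5.23 in T/S/Z (3.31 ± 0.10, adjusted p = 1.32e-06), and Birc2, the gene of cIAP1, rose by 1.19 ± 0.08 (adjusted p = 6.17e-05). A Smac mimetic depletes both ligases as proteins, and the libraries measure RNA only. The executioner gene Mlkl went from 1.20, 0.84 and 0.84 to 2.50, 2.59 and 2.72 (1.64 ± 0.14, adjusted p = 0.000147), whereas Ripk3, the kinase that acts on its product, was the list's single fall, from 2.09, 2.15 and 1.97 to 1.27, 1.39 and 1.30 (-0.75 ± 0.10, adjusted p = 0.00156). The fall of Ripk3 did not pass when 5 in place of 1 was added to each FPKM. The groups of both genes were apart, in opposite directions. Ripk1 did not pass, with levels of 4.24, 4.31 and 4.31 and 4.40, 4.38 and 4.55 (0.15, adjusted p = 0.159), nor did Tnfrsf1a, the gene of TNFR1 (0.22), Casp8 (0.33) and the adaptor Fadd (0.19). Cflar, the gene of the caspase-8 partner cFLIP, rose by 0.92, Tnfrsf1b, the gene of the second TNF receptor, by 2.11 and Zbp1, a nucleic acid sensor that can engage RIPK3, by 1.78.

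Of 26 tested genes of the BCL-2 family and effector caspases 7 rose, 1 of them reaching the filter only with T/S/Z, and 3 fell, beside the 6.39% of all tested genes that rose and 8.99% that fell. Casp4, which encodes the inflammatory caspase that senses lipopolysaccharide in the cytosol, was at 1.59, 1.52 and 1.65 in DMSO and 5.33, 5.44 and 5.58 in T/S/Z (3.86 ± 0.09, adjusted p = 3.5e-07), and Bid, which links caspase-8 to mitochondria, rose by 2.08. The 3 Bcl2a1 genes among the rises are near-identical copies whose values are uncertain. Bcl2, a survival gene, fell by 0.99. Mcl1 and Bax did not pass (0.04 and 0.18).

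The interferon-type response was broad and led by the guanylate-binding proteins. All 16 tested genes of the interferon-inducible GTPases and Irf1 list rose, with a median of 2.71, and 4 of them reached the filter only with T/S/Z. Gbp5, a GTPase active against intracellular pathogens, went from 1.07, 0.70 and 1.35 to 7.20, 7.20 and 7.40 (6.22 ± 0.11, adjusted p = 1.49e-07) and Gbp2 from 4.99, 5.10 and 5.20 to 9.30, 9.29 and 9.53 (4.27 ± 0.07, adjusted p = 1.49e-07). Irf1, the transcription factor of the list, had levels of 3.92, 3.73 and 3.79 and 7.04, 6.87 and 6.92 (3.13 ± 0.07, adjusted p = 3.15e-07). No library of either group overlapped the other for these 3 genes, though reads of the Gbp family and of Tgtp1 and Tgtp2 can be shared between close copies. Of 34 interferon-stimulated genes 29 rose (median 1.64), 4 of these reaching the filter only with T/S/Z, led by the antiviral Rsad2 (4.75), Ifit1 (3.56), Parp14 (3.12) and Mx1 (2.54). Isg15, a ubiquitin-like modifier, rose by 2.11 and the transcription factor genes Irf7 and Stat2 by 1.57 and 1.25. Irf9 and Ifit2 did not pass (0.51 and 0.37).

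MHC class I presentation rose in 18 of 24 tested genes (median 1.19). The peptide transporter genes Tap2 and Tap1 rose by 2.74 and 1.98, the immunoproteasome genes Psmb8, Psmb10 and Psmb9 by 2.84, 2.18 and 1.83, and H2-K1, a classical heavy chain, by 1.48. B2m, the light chain common to all class I molecules, did not pass, with levels of 9.15, 9.24 and 9.21 and 9.25, 9.67 and 9.42 (0.25, adjusted p = 0.0779). Among 21 Toll-like, RIG-I and inflammasome genes 10 rose (median 0.50, or 0.27 with 5 added to each FPKM), 2 of them reaching the filter only with T/S/Z. The bacterial lipoprotein receptor Tlr2 was at 1.73, 1.83 and 1.73 in DMSO and 7.47, 7.48 and 7.57 in T/S/Z (5.74 ± 0.08, adjusted p = 5.34e-08), and its co-receptor Cd14 rose by 2.40 and the adaptor Myd88 by 1.82. Tlr4 and Tlr3 did not pass (-0.29 and 0.50).

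The AP-1 and immediate early genes rose in 17 of 28 tested cases (median 0.89). Junb rose by 3.15, the stress gene Ier3 by 3.10, Fosl1 by 2.20 and Atf3 by 1.86, while Fos and Egr1 did not pass (-0.28 and 0.04). Junb varied among the T/S/Z libraries, with levels of 6.87, 6.60 and 5.59. Of the 19 tested genes on the list of MAP kinase phosphatases and Sprouty feedback 7 rose, and Dusp14 fell by 0.90. The rises were led by Gadd45b (2.54), which is neither a phosphatase nor a Sprouty gene, and Dusp7 (2.02).

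Of 13 pan-reactive astrocyte genes 8 rose (median 1.04), without the filament genes best known as reactive markers. Lcn2, the iron-binding lipocalin, had levels of 3.67, 3.11 and 3.61 in DMSO and 8.37, 8.81 and 8.39 in T/S/Z (5.06 ± 0.18, adjusted p = 2.96e-06), and Steap4, a metalloreductase, of 3.27, 3.36 and 3.30 and 6.77, 6.89 and 6.98 (3.57 ± 0.08, adjusted p = 3.05e-07). The intermediate filament genes Gfap, at 11.02, 10.95 and 10.94 and 10.86, 10.75 and 10.72, and Vim, at 12.25, 12.30 and 12.06 and 11.94, 11.91 and 12.06, did not pass (-0.19 and -0.24). Of the 11 tested genes of the neurotoxic-type (A1) list 5 rose, among them Gbp2 and the GTPase Iigp1 (3.31), and Ggta1 fell by 1.10. Of the 11 tested genes of the neuroprotective-type (A2) list 7 rose, among them Ptx3, a soluble pattern recognition protein (3.68), and the cyclooxygenase gene Ptgs2 (2.92), and Emp1 fell by 0.70. Members of the A1 list are also on the interferon and MHC lists above.

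Homeostatic astrocyte genes had 11 falls among 34 tested genes and a median of -0.22 beside -0.11 for all genes. Gja1, the gap junction gene connexin 43, had levels of 7.97, 8.05 and 8.07 in DMSO and 7.05, 7.19 and 7.28 in T/S/Z (-0.85 ± 0.07, adjusted p = 0.000156). Hepacam, an adhesion molecule of astrocyte contacts, went from 5.94, 5.97 and 5.85 to 5.12, 4.84 and 4.74 (-1.02 ± 0.09, adjusted p = 0.000156), and the potassium channel Kcnj10 from 7.72, 7.88 and 7.77 to 7.05, 6.87 and 7.07 (-0.79 ± 0.09, adjusted p = 0.000647). The groups of these 3 genes did not overlap. Ppp1r3c, a regulator of glycogen synthesis, fell by 1.16 and the glial transcription factor gene Nfia by 1.13. Sox9, another such factor, fell by 0.82, a call lost without replicate 1. The glutamate transporter genes Slc1a3 and Slc1a2 did not pass and their groups overlapped (-0.06 and -0.22). The water channel gene Aqp4 was at 8.21, 8.35 and 8.46 in DMSO and above these in every T/S/Z library, at 8.81, 8.77 and 8.94. Its change of 0.50 ± 0.08 was under the 1.5-fold minimum. With 5 added to each FPKM 7 of the 34 genes were lower, and with each gene's own variance 0 were called, with 18 genes at an unadjusted p under 0.05.

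Of 20 adhesion and costimulatory molecules 14 rose (median 1.22), 4 of these reaching the filter only with T/S/Z, and Cd80, a costimulator of T cells, and Alcam, a cell adhesion molecule, fell by 1.10 and 0.79. Vcam1 went from 6.19, 6.44 and 6.57 to 9.87, 9.93 and 10.09 (3.57 ± 0.08, adjusted p = 3.15e-07) and Icam1 from 3.08, 3.00 and 3.18 to 7.08, 7.08 and 6.83 (3.91 ± 0.10, adjusted p = 4.8e-07). Both bind leukocyte integrins, and each T/S/Z library lay above every DMSO library. Sele, a selectin best known from endothelium, rose by 4.06 and Cd274, the gene of the T cell inhibitor PD-L1, by 3.26. In the same libraries the endothelial markers Cdh5 and Kdr fell by 1.74 and 1.68 and Flt1 rose by 0.61, the last a call lost without replicate 1, and the summed FPKM of the endothelial list was 23.9 to 26.1 in DMSO and 12.5 to 12.6 in T/S/Z.

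Of 20 enzymes of prostaglandin, sterol-oxidising and immunometabolic pathways 11 rose and 4 fell, or 2 fell without replicate 1. Of these rises 3 were in genes that reached the filter only with T/S/Z, and of the other 17 genes 8 rose. Acod1 rose from 0.12, 0.05 and 0.09 to 4.93, 4.71 and 4.77 (4.72 ± 0.10, adjusted p = 2.8e-07) and stood at 3.54% of its microglial T/S/Z level. Ch25h, which forms 25-hydroxycholesterol, rose by 3.88, Nos2, the inducible nitric oxide synthase, by 3.43 and Ptgs2 by 2.92, while the prostaglandin D synthase gene Ptgds fell by 1.39. The 25 genes of cholesterol synthesis gave 0 calls in limma, with 7 at an unadjusted p under 0.05, and 0 calls with each gene's own variance. Complement had 3 rises, 1 of them in a gene that reached the filter only with T/S/Z, and 6 falls among 17 tested genes. Cfb and C3 of the alternative pathway rose by 1.66 and 1.34. C1qa, C1qb and C1qc, which are also microglial markers, fell by 0.68, 0.59 and 0.67, and the calls of C1qa and C1qb were lost without replicate 1 and without replicate 3. The summed FPKM of the microglial list was 159 to 168 in DMSO and 99.3 to 108 in T/S/Z, and 10 of its 17 tested genes were called lower. Its part in the C1q values was not tested. Without replicate 1 the falls in the complement list numbered 3, and without replicate 3 they numbered 4.

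The largest falls included genes of fibroblasts and the extracellular matrix. H19, a noncoding RNA of the imprinted Igf2 region, had levels of 7.17, 7.05 and 6.97 in DMSO and 4.17, 4.13 and 4.03 in T/S/Z (-2.96 ± 0.07, adjusted p = 3.5e-07), and Igf2, the growth factor gene beside it, of 6.31, 6.26 and 6.21 and 4.21, 3.92 and 3.98 (-2.23 ± 0.08, adjusted p = 2.62e-06). Col3a1, a fibrillar collagen, went from 7.67, 7.88 and 7.87 to 4.92, 4.86 and 5.05 (-2.87 ± 0.08, adjusted p = 8.69e-07). These 3 genes carry the overlap mark, and the T/S/Z libraries of each lay below all its DMSO libraries. Of 45 collagen and matrix genes 20 fell and 2 rose, with a median of -0.44, and with each gene's own variance 2 fell. The collagen genes Col1a2 and Col1a1 fell by 2.45 and 1.99, the proteoglycan gene Dcn by 2.08, and the basement membrane genes Col4a2, Lamb1, Nid1 and Col4a1 by 1.46, 1.43, 1.27 and 1.12. The rises were Tnc (1.46) and Thbs1 (1.18), matrix proteins that loosen adhesion. Fn1 did not pass (-0.10).

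Fibroblast markers moved with these genes. Of 11 tested markers of meningeal and perivascular fibroblasts 10 fell, and their summed FPKM was 777 ± 6.80 in DMSO and 183 ± 8.73 in T/S/Z (SD, n = 3), 23.5% of the DMSO sum. The list shares 7 tested genes with the matrix list, 6 of which fell. Of the 38 matrix genes that are not fibroblast markers 14 fell and 2 rose (median -0.36). The astrocyte list summed to 90.3% of its DMSO level, the pericyte list to 91.9%, the neuron list to 95.2%, the ependymal list to 79.1%, the oligodendrocyte list to 67.0%, the microglial list to 64.4% and the endothelial list to 49.4%. The part of the fibroblasts in the falls was not tested.

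Further falls are given here by gene, and which cells of the cultures they came from was not tested. Aldh1a2, which makes retinoic acid, fell by 2.33, Dhrs3, a retinaldehyde reductase, by 2.13, and Stra6, the receptor for retinol-binding protein, by 2.03. Crabp2, a retinoic acid-binding protein on the fibroblast list, fell by 1.32. Apod, a lipocalin, fell by 2.27, Cd248, a stromal surface protein, by 2.22 and the tight junction gene Cldn11 by 2.61. Cldn11 is also on the oligodendrocyte list, whose summed FPKM was 206 to 230 in DMSO and 124 to 162 in T/S/Z. Fam180a fell from 3.30, 3.50 and 3.02 to 0.67, 0.61 and 0.71 (-2.61 ± 0.13, adjusted p = 1.45e-05), to the lowest mean T/S/Z level of the 15 genes with the largest falls.

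**Figure D3:**
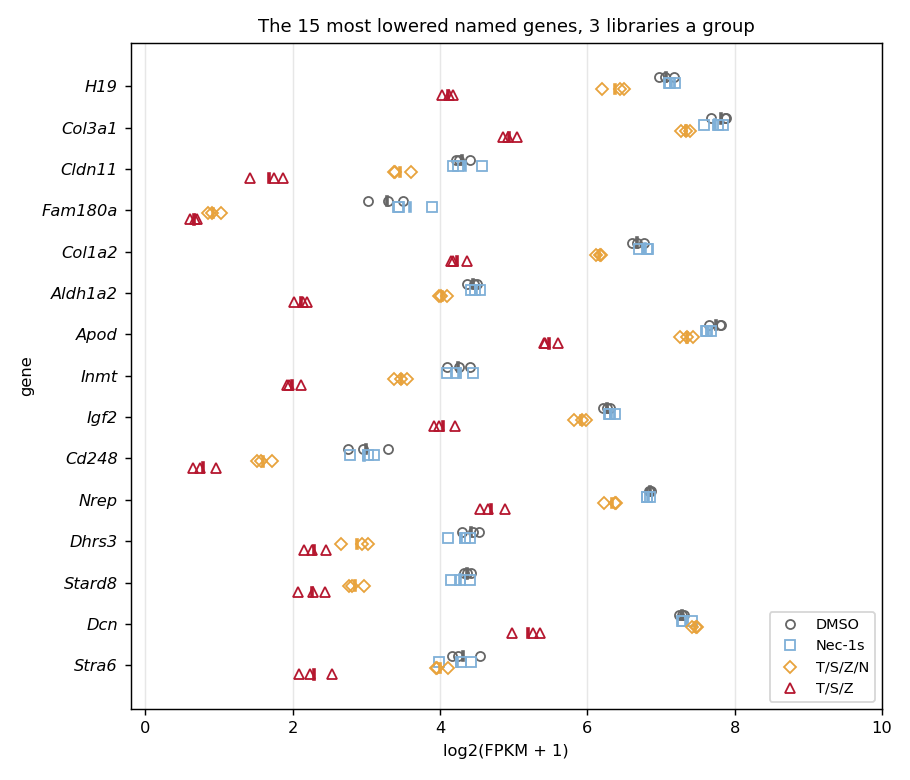
Level, as log2(FPKM + 1), of the 15 genes with the largest falls (pseudogenes and unnamed models left out) in each library of the 4 astrocyte groups (3 libraries each, bars at group means). T/S/Z libraries (red triangles) lie below DMSO libraries (grey circles) for every gene, and T/S/Z/N libraries (orange diamonds) lie close to the controls for Dcn but close to T/S/Z for Fam180a.

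Of 31 protease, inhibitor and plasminogen genes 14 rose, 1 of them reaching the filter only with T/S/Z, and 7 fell, with a median of -0.11 beside -0.11 for all tested genes. Mmp3, stromelysin-1, was at 2.75, 2.72 and 3.42 in DMSO and 7.59, 7.75 and 8.13 in T/S/Z (4.86 ± 0.08, adjusted p = 1.54e-07), and Mmp13, a collagenase, went from 1.15, 1.59 and 1.44 to 4.00, 4.21 and 4.73 (2.92 ± 0.14, adjusted p = 1.03e-05). Plau, the plasminogen activator urokinase, rose by 1.70. The fibroblast-type proteases Ctsk and Mmp2 fell by 1.91 and 1.5, and the inhibitor gene Timp3 by 1.07.

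Developmental signalling genes fell in 14 and rose in 2 of 36 tested cases, with a median of -0.54. Id4, an inhibitor of basic helix-loop-helix factors induced by BMP, went from 5.48, 5.80 and 5.76 to 3.70, 3.92 and 3.77 (-1.88 ± 0.08, adjusted p = 5.96e-06), and Hey1, a Notch target, from 5.04, 5.19 and 5.16 to 3.58, 3.50 and 3.51 (-1.60 ± 0.08, adjusted p = 1.58e-05). The groups of both were apart. Smad9, Bmp7 and Wnt5a fell by 1.48, 1.38 and 1.15. The inhibitory Smad7 went against most of the list, rising by 1.00. Of 33 growth factor and receptor genes 9 rose, led by Pdgfb (3.69), Ereg (2.40), Inhba (1.99) and the neurotrophic factor Gdnf (1.80), and 8 fell, among them the receptor Pdgfrb (-1.49).

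The NRF2 and metallothionein list had 4 rises and 1 fall among 22 tested genes, the fall being the NRF2 target Nqo1, from 4.45, 4.33 and 4.25 to 2.57, 2.81 and 2.66 (-1.67 ± 0.10, adjusted p = 3.29e-05). Without replicate 1, and likewise without replicate 2, the falls numbered 2. Hmox1 did not pass (0.34). Of 26 genes of the unfolded protein and integrated stress response 3 rose, led by Atf3, with Hspa5 at 0.11 and Ddit3 at 0.05. Beside the 6.39% of all tested genes that rose and 8.99% that fell, of 25 glycolysis and hypoxia genes 2 rose, Hk2 (1.34) and Hif1a (0.93), and of 36 cell cycle genes 1 rose and 2 fell, with Mki67 at -0.31. The cell cycle falls numbered 1 without replicate 1, 3 without replicate 2 and 4 without replicate 3, and limma with quantile normalization gave 0, with 13 genes of the list at an unadjusted p under 0.05. Ribosome biogenesis had 5 rises among 32 genes (median 0.39), led by Rrp9 (1.03), 8 without replicate 3 and 9 with median centring. In the FOXO-type and quiescence list 7 of 24 genes fell, led by Sesn1 (-1.26) and Tsc22d3 (-1.12), and Arrdc4 rose by 1.08. The rises numbered 2 without replicate 2, without replicate 3, with quantile normalization and with median centring.

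The 12 astrocyte libraries allowed the T/S/Z change to be set against the change from Nec-1s alone to T/S/Z/N, each with its own controls, and the difference between the 2 changes to be tested. It passed for 466 of 13842 genes (3.37%), being above 0 for 223 (1.61%) and below 0 for 243 (1.76%), a balance that turned to 258 above and 204 below with quantile normalization. The count fell to 90 without replicate 1 and to 99 without replicate 2. Where the difference is given below, a positive value says that the change was more positive without Nec-1s.

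Among chemokines the difference was above 0 for 9 of 23 (7 without replicate 1, 5 without replicate 2) and below 0 for 1, Ccl12 (-1.37). Of the 23 genes 9 reached the filter only with T/S/Z, so this count rests in part on genes tested because they were high there. The differences were not counted without them. Ccl3 was at 0.78, 0.23 and 0.50 with Nec-1s alone and 1.29, 0.77 and 1.04 with T/S/Z/N, a change of 0.53 beside 4.01 without Nec-1s (difference 3.48 ± 0.18, adjusted p = 1.49e-06). Cxcl1 was at 0.25, 0.49 and 0.58 and 5.08, 5.28 and 5.29 (difference 2.33 ± 0.11, adjusted p = 1.49e-06), and Cxcl2 at 0.41, 0.49 and 0.52 and 3.48, 3.56 and 3.65 (difference 2.49 ± 0.12, adjusted p = 1.49e-06). For Ccl3 the T/S/Z/N libraries lay close to the controls, whereas Cxcl1 and Cxcl2 stayed well above them. For the most raised chemokine, Ccl2, the change was 8.00 with Nec-1s and 7.86 without (difference -0.14 ± 0.25, adjusted p = 0.739), for Ccl7 7.32 and 7.32 (difference -0.01 ± 0.19, adjusted p = 0.986) and for Cxcl10 7.80 and 7.49 (difference -0.31 ± 0.13, adjusted p = 0.152). For all 3 genes every T/S/Z/N library was below every T/S/Z library and every Nec-1s library below every DMSO library, differences that were not tested.

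Among cytokines the difference was above 0 for 11 of 20 (5 without replicate 1, 7 without replicate 2). Here too 9 of the 20 genes reached the filter only with T/S/Z, and the differences were not counted without them. Il1b had changes of 1.33 with and 3.91 without Nec-1s (difference 2.58 ± 0.13, adjusted p = 1.6e-06), Il1a by 0.54 and 3.11, Csf2 by 2.30 and 4.23 and Tnf by 0.83 and 2.63. In the interferon-inducible GTPase list the difference passed for 0 of 16 genes in limma, with 5 at an unadjusted p under 0.05, and for 0 with each gene's own variance. Gbp5 had changes of 6.06 and 6.22 (difference 0.17 ± 0.18) and Irf1 by 3.39 and 3.13. The NF-kB inhibitor genes Nfkbia and Tnfaip3 did not pass either (differences 0.28 ± 0.17 and 0.15 ± 0.12), whereas Nfkbiz, an atypical member of that family, had changes of 1.39 with and 3.02 without Nec-1s (difference 1.62 ± 0.11, adjusted p = 2.01e-05). Over the NF-kB list the difference was above 0 for 8 of 27 genes, for 1 without replicate 1 and for 2 without replicate 2, and it was below 0 for 1, the feedback gene Tnip3 (-1.28). Over the interferon-stimulated genes it was above 0 for 6 of 34 in limma, for 1 with each gene's own variance, and for 0 without replicate 1, where 10 had an unadjusted p under 0.05. Of the 27 NF-kB genes 3, and of the 34 interferon-stimulated genes 5, reached the filter only with T/S/Z. Birc3 and Tlr2 had differences of 0.00 ± 0.14 and 0.07 ± 0.11.

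**Figure D4:**
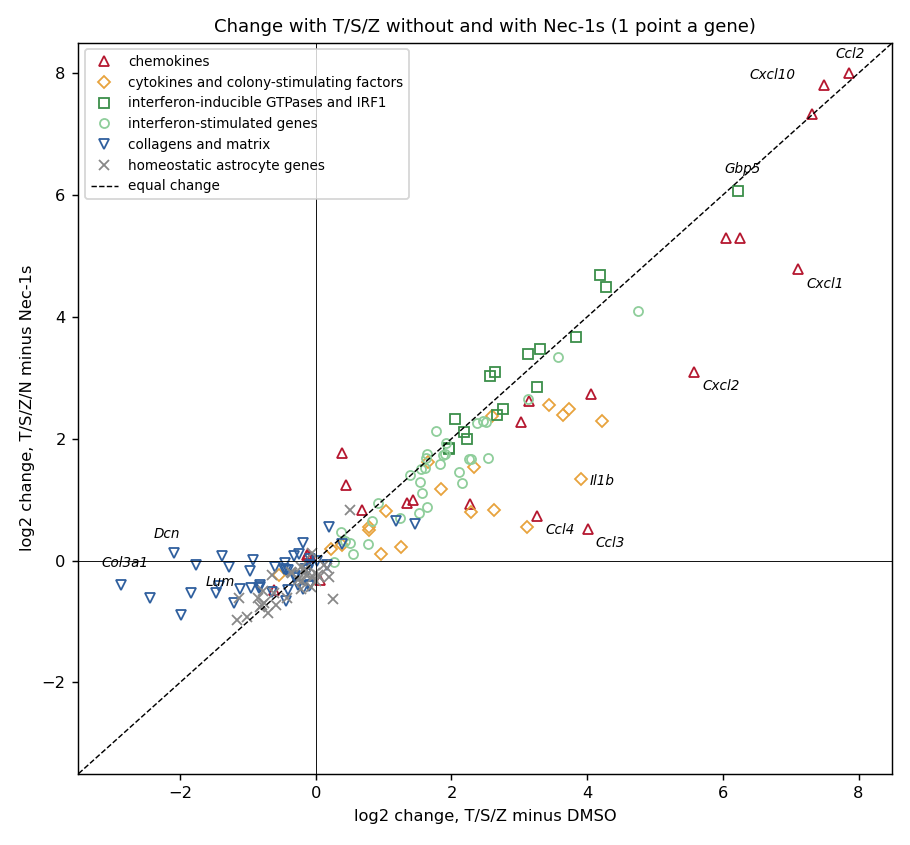
Change with T/S/Z without Nec-1s (x axis, T/S/Z minus DMSO) and with it (y axis, T/S/Z/N minus Nec-1s), both in log2 units, for the genes of 6 lists, 1 point per gene, with the line of equal change dashed. The interferon-inducible GTPases lie along the line, Ccl3, Ccl4 and Il1b lie far below it, and Col3a1 and Dcn lie above it at the left.

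Among matrix genes the difference was below 0 for 13 of 45 (9 without replicate 1, 7 without replicate 2). Dcn was at 7.30, 7.42 and 7.29 with Nec-1s and 7.42, 7.49 and 7.47 with T/S/Z/N, a change of 0.12 beside -2.08 (difference -2.21 ± 0.11, adjusted p = 1.49e-06). Col3a1 was at 7.78, 7.59 and 7.84 and 7.33, 7.28 and 7.39, a change of -0.40 beside -2.87 (difference -2.46 ± 0.10, adjusted p = 8.36e-07), and Lox, a collagen cross-linking enzyme, had a change of 0.08 beside -1.39 (difference -1.47 ± 0.12, adjusted p = 6.15e-05). For Dcn and Lox the T/S/Z/N means were slightly above those with Nec-1s alone. Among fibroblast markers 6 of 11 differences were below 0, with a summed FPKM of 787 ± 29.4 with Nec-1s and 616 ± 2.63 with T/S/Z/N (SD, n = 3), 78.2% of the Nec-1s sum beside 23.5% without Nec-1s. Mmp2 had a change of -0.03 with Nec-1s beside -1.5 without. Among the 17 tested microglial markers 4 differences were below 0, and 1 was without replicate 3. Limma gave 0 without replicate 1 and 0 without replicate 2, where 11 and 8 had an unadjusted p under 0.05. The microglial list summed to 85.5% of its Nec-1s level with T/S/Z/N, beside 64.4% of its DMSO level with T/S/Z. Its part in the chemokine and cytokine differences was not tested.

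Among the 34 homeostatic astrocyte genes the single difference to pass was that of the connexin gene Gjb2 (0.89), which did not pass without replicate 1 or without replicate 2. Hepacam had changes of -0.93 with and -1.02 without Nec-1s (difference -0.09 ± 0.09), Gja1 by -0.62 and -0.85 (difference -0.23 ± 0.10) and Kcnj10 by -0.74 and -0.79 (difference -0.06 ± 0.12). Fam180a had changes of -2.66 and -2.61 (difference 0.05 ± 0.17). Saa3 and Mmp9 rose less without Nec-1s. Saa3, an acute-phase protein gene, was at 2.55, 2.53 and 2.74 with T/S/Z and 4.62, 4.79 and 4.81 with T/S/Z/N (difference -1.93 ± 0.24, adjusted p = 0.00131), a call lost without replicate 1, and Mmp9, a gelatinase, was at 2.00, 1.73 and 1.62 and 3.66, 3.53 and 3.60 (difference -1.63 ± 0.20, adjusted p = 0.00132). For both genes the T/S/Z/N libraries were the highest of the 4 groups.

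**Figure D5:**
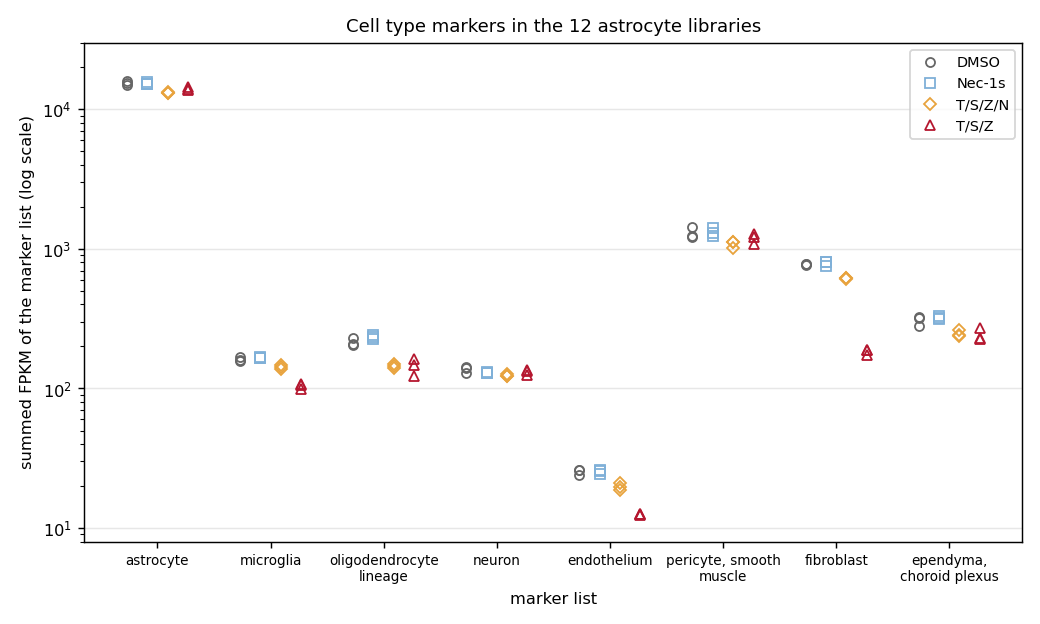
Summed FPKM (log scale) of 8 cell type marker lists in each of the 12 astrocyte libraries, 3 per group. The fibroblast list drops to 173 to 188 in T/S/Z and stays at 613 to 618 in T/S/Z/N, while the astrocyte list stays between 13006 and 16013 in all 12.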

How the data were processed

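RNA of the astrocyte libraries was read as poly-A selected, strand-specific, paired-end libraries on a DNBseq instrument, and whether strand was used in counting is not given in the sources used here. Alignment, quantification and scaling were done by the authors with OmicSoft Array Studio, and the values they deposited are log2(FPKM + 1) on GRCm38 gene models, with an annotation table of exon lengths and a mark of confounded genes, whose meaning is not defined there and which is read as overlap with another gene. The deposited log2 values of the 12 astrocyte libraries have nearly the same 75th percentile. The microglial log2 table was normalized separately, and is used only for side-by-side levels. The labels give it another library provider, whereas the study's methods give 1 procedure for both cell types. It also holds replicates adjusted to a common mean per gene.

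Genes with a log2 value of at least 1 in at least 3 of the 12 libraries were fitted with limma 3.58.1 in R 4.3.3 on the log2 values as deposited. The T/S/Z and DMSO libraries were fitted with the replicate number as a block, and the difference between the changes without and with Nec-1s was fitted over the 4 groups with the same block. Calls needed a Benjamini-Hochberg adjusted p under 0.05 and a change over 1.5-fold, and are two-sided. The labels do not say that replicates are separate cultures. The study's methods describe biological replicates in general as cells of different litters, without naming these libraries, and where this does not hold p-values measure technical spread. No counts are in the tables, so library depth is an estimate and no counting interval is given.

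Genes and lists were chosen with earlier results of these data known. The genes named are the 15 largest rises and falls with 1 direction in 3 of 3 pairs (pseudogenes and unnamed models left out), the up to 6 most changed called members of each list in each direction, members that define a list's role or go against it, the genes of the necrosome and of astrocyte identity, and the 5 largest positive and negative differences with Nec-1s. Further list members were named after their values were seen. Promoter windows are from RefSeq, and a deposited symbol was matched to 1 window. Alternatives changed the value added before the log, the filter, the scaling between libraries, the block, the variance, the fold minimum and the libraries included. A few list members are not reported here.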

Additional observations from a re-analysis of the deposited data

Results flagged for a closer look

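For 466 genes the change with T/S/Z differed between libraries without and with Nec-1s by the test of the difference itself. The 5 largest positive differences were those of Ccl3 (3.48), Il1b (2.58), Il1a (2.57), Ccl4 (2.53) and Cxcl2 (2.49), each on the log2 scale and each the gene of a chemokine or interleukin-1. All 5 lay under the filter minimum of 1 in every DMSO and Nec-1s library, so they were tested because libraries given T/S/Z were high. In T/S/Z astrocytes they stood at 0.448%, 5.50%, 14.1%, 0.418% and 6.13% of their level in T/S/Z microglia. Whether remaining microglia had a part in these differences was not tested. The 5 largest negative differences were those of Col3a1 (-2.46), Dcn (-2.21), H19 (-2.20), Apod (-1.99) and the acute-phase gene Saa3 (-1.93). In the first 4 of these 5 genes the fall was larger without Nec-1s, and in Saa3 the rise was smaller. Groups of 3 libraries are too small for a test of single outlying libraries.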

How the results depend on the processing

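The number of genes called between T/S/Z and DMSO, 2130, was 985 with 5 added to FPKM, 1094 among genes that averaged 3 or more on the log2 scale, where fewer genes were tested, 281 with each gene's own variance and 766 with a fold minimum of 2. Leaving out 1 replicate gave 1675 to 2420 calls, and the unadjusted p of the ordinary paired test gave 1884. The share of rises among the calls, 41.5%, was 63.0% with each gene's own variance (177 higher, 104 lower), 60.3% at a fold minimum of 2, 57.6% with 5 added, 48.7% at a mean of at least 3, 49.1% with median centring and 52.1% with quantile normalization (999 higher, 917 lower). The number of differences with Nec-1s, 466, was 196 (118 above 0, 78 below), 280 and 200 under the first 3 of these settings, and 90 to 545 without 1 replicate (286 above and 259 below without replicate 3). The cause of these shifts was not tested.

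Of the 281 genes that the naming rule covers, not all of them described above, 138 missed the threshold with each gene's own variance, 26 with 5 added, 6 with quantile normalization, 4 with median centring, and 14, 3 and 4 without replicates 1, 2 and 3. None of the 281 reversed, but for most settings this could not have come out otherwise. A change of filter, block or variance leaves the size of a change as it was. A gene with 1 direction in all 3 pairs cannot reverse when 1 replicate is left out. Each gene's own variance left 0 calls in the lists of MAP kinase phosphatases, homeostatic astrocyte genes, NRF2, glycolysis, FOXO-type, cell cycle and ribosome biogenesis genes, where the unadjusted p was under 0.05 for 10, 18, 12, 8, 15, 10 and 16 genes, and in 4 of the marker lists. With 5 added the falls numbered 9 in the developmental list, 4 among proteases, 1 in complement, 1 among prostaglandin and immunometabolic enzymes and 2 among microglial markers, and the rises numbered 12 among cytokines. In the cell cycle list limma then gave 0 falls, with 15 genes at an unadjusted p under 0.05. Same-numbered DMSO and T/S/Z libraries deviated together with r of 0.41, -0.06 and 0.29, and differently numbered ones with r of -0.44 to 0.18. DMSO replicate 2 went more with T/S/Z replicate 3 (0.18) than with T/S/Z replicate 2 (-0.06), so not every pair was borne out. With no replicate block 2097 genes and 444 differences were called, and 1 of the 281 genes lost its call.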
